A study of Vigna unguiculata with 30 samples.

Results

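Middle-canopy leaves of cowpea (Vigna unguiculata), a grain legume, were compared between the developmental stages R3 and R1. The comparison took the 10 libraries whose titles name the middle position, 5 at R1 and 5 at R3, out of 30 libraries in the series. All plants were of the line IT97K-499-35, stood in the ground of one greenhouse and received irrigation, fertilizer and supplemental light. Leaf punches were taken at week 5.5 from planting for R1 and at week 6.5 for R3, and libraries were made from polyA RNA. No allele or agent differed between the groups, which differ in stage and harvest time alone as far as the labels say. Stage and harvest time cannot be told apart, nor can any handling that went with either. The replicates are called biological, but the labels do not say whether each came from its own plant, so the p-values measure the spread between these samples, which may be technical.

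In grain legumes the R stages are the reproductive ones, and in the scheme used for soybean R1 is the onset of flowering and R3 the beginning of pod growth. Leaves then supply carbon and nitrogen to flowers and pods, and middle leaves sit between young, lit leaves above and older, shaded leaves below. Whole punches mix mesophyll, epidermis and veins, so fewer cells of a type and less RNA per cell cannot be told apart. Gene models carry identifiers of annotation version 1.2 without product names, and 0 of them matched the RefSeq table used here. The labelled tissue could therefore not be checked against leaf markers, and no role is given to any gene.

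Middle libraries held 11.4 to 13.7 M counts at R1 and 10.6 to 14.4 M at R3 (M, mega), over 31948 gene models, of which 25954 had a count in some middle library. Levels are counts per M counts (CPM) with library sizes scaled by TMM (the trimmed mean of log ratios). Of the 17 library measures compared (total counts, gene models with a count, TMM factor, and shares of counts in the 10 most abundant gene models, in single-exon gene models, on each chromosome and on unplaced contigs), none passed an exact permutation test after adjustment. The nearest were the share of counts on chromosome 3, 15.8% ± 0.185 at R1 and 15.4% ± 0.107 at R3 (SD, n = 5 each), and that on contigs, 0.271% ± 0.0235 and 0.192% ± 0.0411. Both had an exact two-sided p = 0.00794, the smallest that 5 against 5 can give, and 0.0675 adjusted over the 17.

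The libraries of the stages were not cleanly apart. On the first principal component of log2(CPM + 1) over the 10 middle libraries, which held 42.5% of the variance, R1 libraries ran from -61.7 to 12.1 and R3 libraries from -22.2 to 85.7. R1 replicate 5 lay above R3 replicates 1 and 2, and R3 replicate 4 had the highest score, with the next at 42.9. The second component held 19% and placed R1 replicate 2 (46.7) next to R3 replicate 1 (40.4). The median gene had an SD of 0.245 between R1 libraries and 0.266 between R3 libraries on the same scale.

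**Figure D1:**
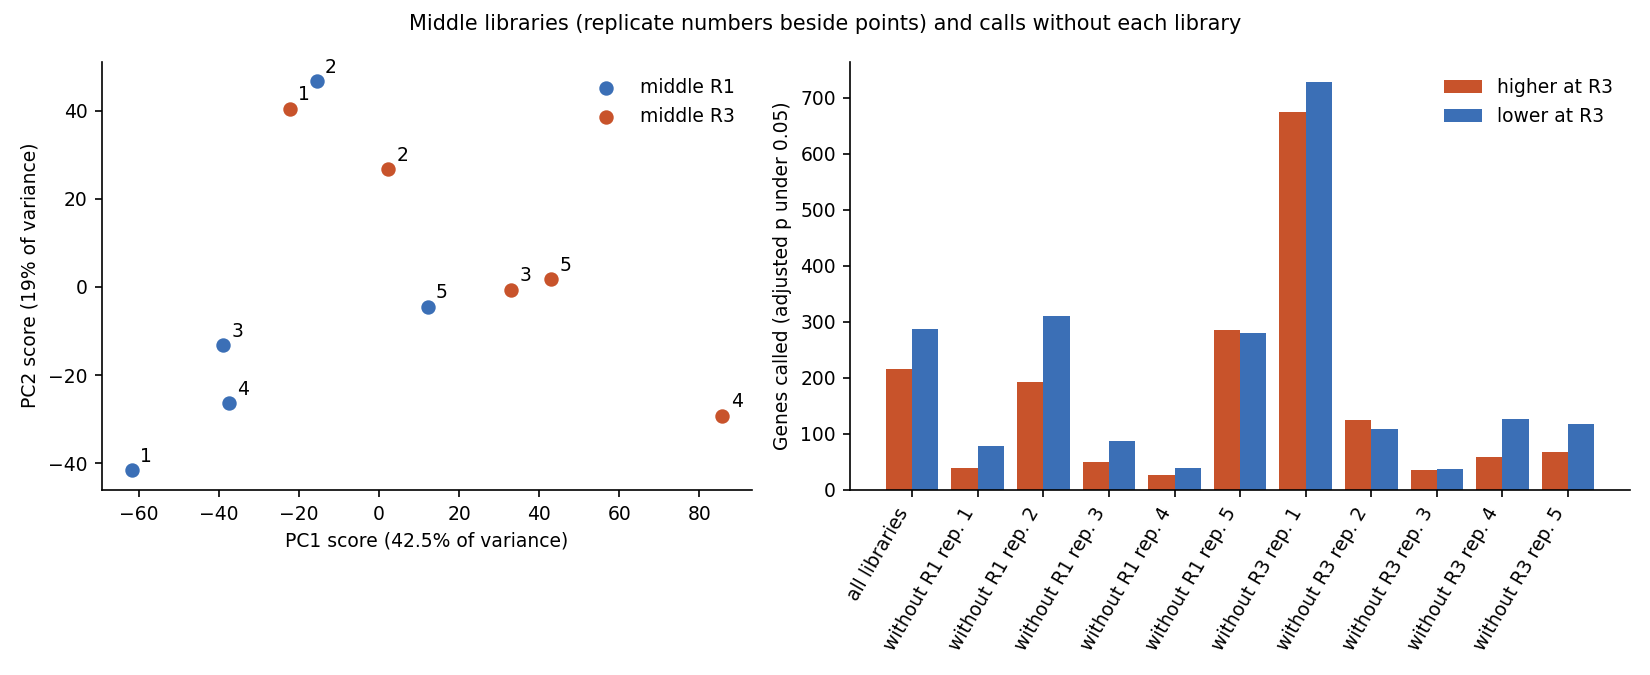
The left panel plots the scores of the 10 middle libraries on the first and second principal components, with replicate numbers beside the points, and the right panel the genes called higher or lower at R3 with all libraries and without each middle library. R1 and R3 points overlap along the first component, and the calls run from 67 without R1 replicate 4 to 1402 without R3 replicate 1.

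With the stage, 504 genes differed in middle leaves, 2.48% of 20284 tested (edgeR's quasi-likelihood test, Benjamini-Hochberg adjusted p under 0.05). Of these, 216 rose from R1 to R3 (1.06%) and 288 fell (1.42%), and 4178 genes had an unadjusted p under 0.05 (20.6%). Most of the called genes changed by less than 2-fold. Of the higher genes 69 changed by less than 1.5-fold and 74 by 1.5 to 2-fold, and of the lower genes 102 and 116. At least 2-fold was reached by 73 higher and 70 lower genes (0.705% of genes tested). At 4-fold or more there were 23 higher and 16 lower genes. Of all 20284 genes tested, called or not, 15591 were under 1.5-fold, 2017 at 2-fold or more and 378 at 4-fold or more. The called genes were more abundant than the median gene tested, with medians of 27.7 CPM (higher) and 26.8 CPM (lower), against 15 CPM. None averaged 1000 CPM or more over the 10 libraries, which only 112 tested genes did (0.552%). Together the 216 genes took 0.77% to 1.04% of the counts of R1 libraries and 1.07% to 2.05% of R3 libraries, and the 288 took 1.09% to 1.54% and 0.77% to 0.919%. The ranges of the stages did not overlap for 137 of the higher and 221 of the lower genes. Over all genes tested, 6.35% had ranges that did not overlap, 2.81% higher and 3.54% lower at R3. Complete gain or loss was rare: 1 gene model had no count at R1 and a count in all 5 R3 libraries, 5 had the opposite pattern, and none of these was among the called genes, each of which had counts at both stages.

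The number of calls rested on single libraries. It was 118, 503, 136, 67 and 566 without R1 replicates 1 to 5 in turn (0.574%, 2.44%, 0.661%, 0.326% and 2.75% of genes tested). Without R3 replicates 1 to 5 it was 1402, 233, 73, 185 and 184 (6.81%, 1.13%, 0.355%, 0.9% and 0.894%). Of the 504 genes called among 20284 tested, 54 were called in all 10 fits that left out 1 middle library, 22 higher and 32 lower. Their gene models had a median length of 1176.5 bases (higher) and 4468.5 bases (lower). These lie farther apart than the 1464 and 3644 bases of all genes called higher and lower. With scaling by library size alone there were 290 calls (1.43%), split into 79 that rose and 211 that fell, with a median log2 fold change over all tested genes of -0.02 in place of -0.01.

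The largest rise by the naming rule was that of Vigun01g220300 (chromosome 1, 39403274 to 39405050, plus strand, 5 exons). Coordinates are those of the deposited table, in an unstated genome build. Exon numbers count the exon entries of that table, where an exon may be listed more than once. Its level was 0.0752, 0.859, 0.791, 0.398 and 0.854 CPM in R1 replicates 1 to 5 and 7.26, 5.47, 9.28, 6.88 and 14.1 CPM in R3 replicates 1 to 5. Every R3 library was above every R1 library, and R1 replicate 1 was the lowest. The log2 fold change was 3.85 (SE 0.65, edgeR adjusted p = 0.0063). The gene also rose in bottom leaves, from 1.08 ± 0.638 to 21.9 ± 12.1 CPM (4.31, adjusted p = 0.00025), and had 0.614 ± 0.603 and 2.26 ± 1.68 CPM in top leaves (1.84, adjusted p = 0.14).

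Vigun08g172300 (chromosome 8, 34322277 to 34323927, minus strand, 4 exons) had 0, 0.477, 0.396, 0.239 and 1.28 CPM at R1 and 2.89, 5.64, 2.5, 19.3 and 3.17 CPM at R3. R3 replicate 4 stood far above the other R3 libraries, and the groups did not overlap. The log2 fold change was 3.81 (SE 0.91, edgeR adjusted p = 0.027) and 2.89 without R3 replicate 4 (adjusted p = 0.1). Bottom leaves rose from 0.863 ± 0.542 to 32.6 ± 28.6 CPM (5.20, adjusted p = 0.0008). The call in middle leaves also ended without R1 replicates 1, 3 and 4 or R3 replicate 3 and in a fit of the middle groups alone (adjusted p = 0.052 to 0.086).

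Among genes that fell, Vigun03g026300 (chromosome 3, 1973823 to 1977298, plus strand, 12 exons) had the largest drop by the rule. It was at 7.29, 5.73, 6.41, 10.4 and 4.01 CPM at R1 and at 3.79, 1.11, 1.86, 0.556 and 0.693 CPM at R3. R3 replicate 1 came close to R1 replicate 5, and the groups did not overlap. The log2 fold change was -2.07 (SE 0.54, edgeR adjusted p = 0.039). Bottom leaves fell likewise, from 2.47 ± 0.931 to 0.619 ± 0.407 CPM (-1.96, adjusted p = 0.02), whereas top leaves stood at 10.8 ± 4.26 and 7.12 ± 6 CPM (-0.60, adjusted p = 0.62). VigunL059915, on an unplaced contig (54780 to 56871, minus strand, 2 exons), had 4.96, 6.3, 6.17, 6.92 and 4.1 CPM at R1 and 2.31, 0.77, 0.785, 0.556 and 2.87 CPM at R3. R3 replicates 1 and 5 were the highest of their group and still below all R1 libraries. The log2 fold change was -1.98 (SE 0.51, adjusted p = 0.038). Both calls lie near the threshold: that of Vigun03g026300 ended in 11 and that of VigunL059915 in 11 of 19 alternatives, with adjusted p up to 0.12.

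The most abundant gene that rose was Vigun05g013700 (chromosome 5, 1076636 to 1079744, minus strand, 2 exons). It had 335, 462, 399, 507 and 594 CPM at R1 and 754, 916, 1200, 1390 and 1410 CPM at R3. All R3 libraries lay above all R1 libraries, and the log2 fold change was 1.3 (SE 0.31, edgeR adjusted p = 0.026). It rose at the other positions as well, from 533 ± 331 to 1110 ± 206 CPM in bottom leaves (1.05, adjusted p = 0.021) and from 511 ± 95.2 to 1380 ± 484 CPM in top leaves (1.44, adjusted p = 0.016). Vigun11g148500 (chromosome 11, 35775967 to 35778945, minus strand, 27 exons) rose from 524 ± 40.7 to 835 ± 108 CPM, with R1 libraries between 476 and 580 CPM and R3 libraries between 704 and 956 CPM. Its log2 fold change was 0.67 (SE 0.16, edgeR adjusted p = 0.027). In bottom leaves it went from 488 ± 129 to 678 ± 87.7 CPM (0.48, adjusted p = 0.042) and in top leaves from 630 ± 133 to 1010 ± 97.5 CPM (0.69, adjusted p = 0.026). The middle calls of both genes ended without R1 replicates 1, 3 and 4 or R3 replicates 3, 4 and 5 (adjusted p = 0.051 to 0.089).

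The most abundant genes that fell were long. Vigun05g295600 (chromosome 5, 48068667 to 48080632, minus strand, 26 exons, 7583 bases of exon) had 432, 382, 438, 458 and 459 CPM at R1 and 353, 278, 292, 341 and 317 CPM at R3. R1 replicate 2 was the lowest of its group and above the highest R3 library. The log2 fold change was -0.46 (SE 0.09, edgeR adjusted p = 0.013). The call ended in the fit of the middle groups alone (adjusted p = 0.057) and without R3 replicate 3 (0.055). Vigun03g427000 (chromosome 3, 63211603 to 63233443, plus strand, 74 exons, 11289 bases of exon) fell from 277, 224, 273, 288 and 300 CPM at R1 to 175, 145, 157, 196 and 178 CPM at R3. The groups did not overlap, and the log2 fold change was -0.68 (SE 0.12, adjusted p = 0.0065). Bottom and top leaves fell with similar values, -0.46 (adjusted p = 0.01) and -0.57 (adjusted p = 0.012). All 8 calls named so far ended in the edgeR fit with a replicate block and only the 2 middle groups (adjusted p = 0.091 to 0.12). None of these 8 genes overlaps the exons of another gene model.

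**Figure D2:**
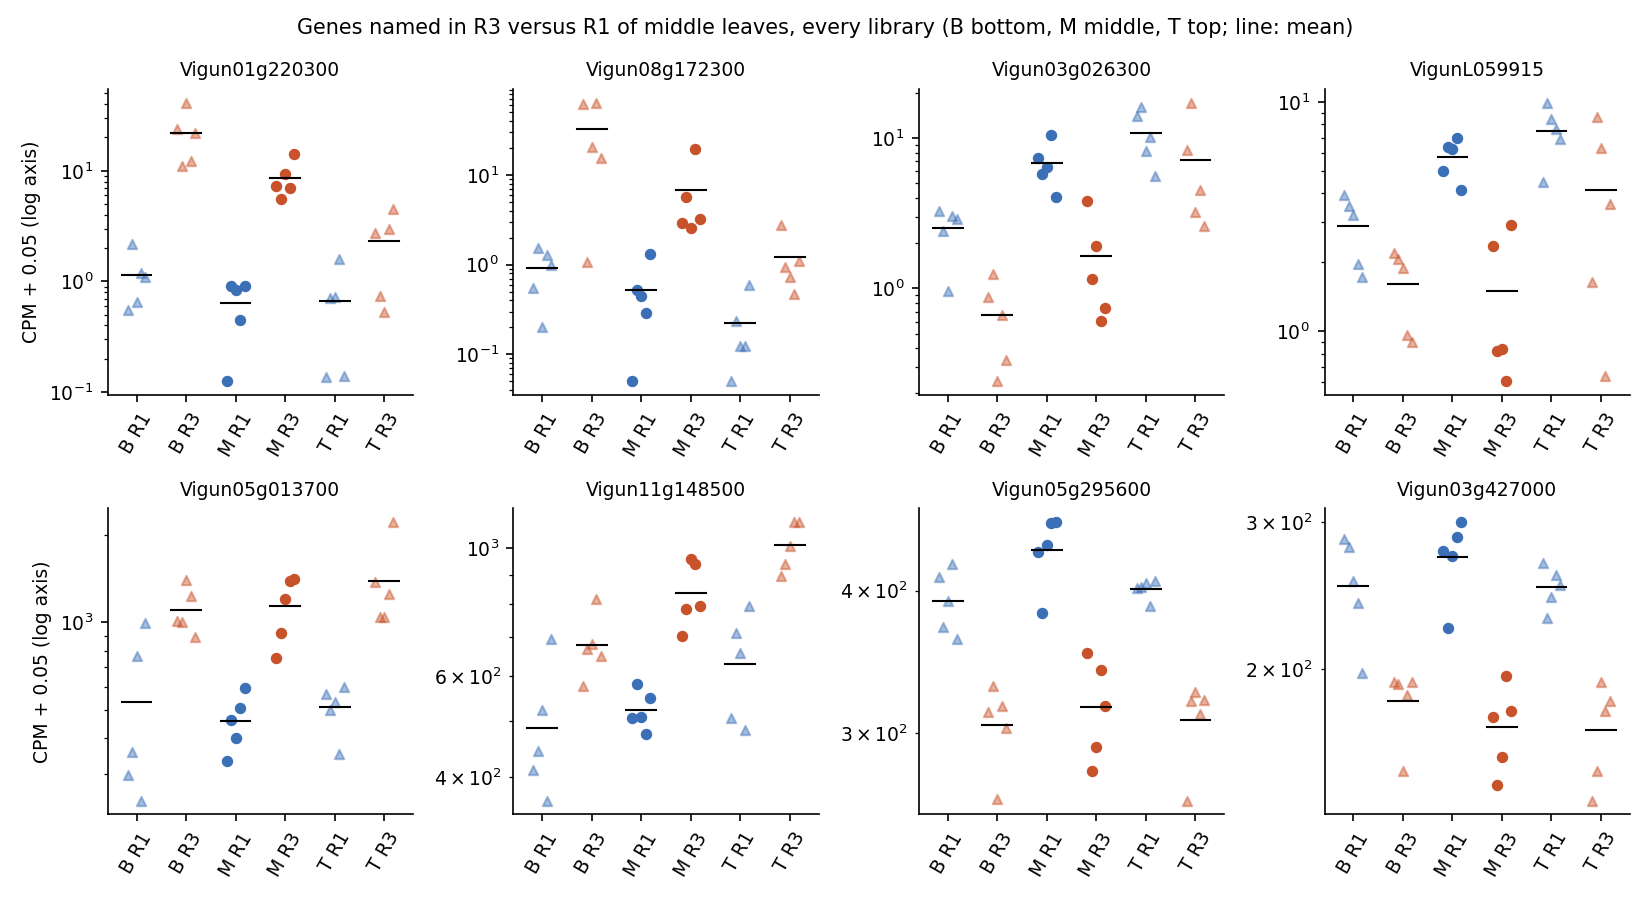
Each panel plots 1 named gene in all 30 libraries as CPM plus 0.05 on a log axis, with circles for middle leaves, triangles for bottom and top leaves, blue for R1, red for R3 and a line at the mean. In middle leaves the R3 points of the first and second and of the fifth and sixth panel lie above all R1 points, as for Vigun05g013700 (335 to 594 CPM at R1, 754 to 1410 CPM at R3), and in the remaining middle-leaf panels under them.

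Gene model length went with the direction of change. Genes that fell had a median of 3644 bases of exon and 14 exons, those that rose 1464 bases and 5 exons, and all genes tested 1949 bases and 7 exons. When the tested genes were put into 4 length classes of 5070 to 5073 genes, 92 genes rose and 26 fell in the shortest class (96 to 1350 bases), 69 rose and 26 fell in the next (1351 to 1949 bases), 39 rose and 46 fell in the following one (1950 to 2723 bases), and 16 rose and 190 fell in the longest (2724 to 16841 bases). The share that fell was thus 3.75% in the longest class and 0.513% in the shortest. The median log2 fold change over all genes of a class went from 0.09 through 0.04 and -0.02 to -0.14. By exon number the share that fell was 1.01% for single-exon genes, 0.665% for 2 to 4 exons, 1.24% for 5 to 9, 1.57% for 10 to 19 and 2.79% for 20 or more. The share that rose was 1.01%, 1.29%, 1.45%, 0.949% and 0.439% in the same classes, so the order by exon number was less regular than that by length, and single-exon genes split into 26 that rose and 26 that fell. Length is that given in the deposited table. Exon number is the count of exon entries there, which may list an exon more than once, so the exon classes need not reflect distinct exons. The relation with length or exon number was seen after the calls were made, so it carries no test.

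The contrast between long and short genes was smaller on average at R3 at each position. The mean log2(CPM + 1) of the longest class minus that of the shortest was 0.885, 0.741, 0.826, 0.907 and 0.87 in middle R1 replicates 1 to 5 and 0.681, 0.608, 0.626, 0.763 and 0.648 in R3 replicates 1 to 5. R1 replicate 2 was the lowest of its group and R3 replicate 4 the highest of its own, and these overlapped. In bottom leaves the difference was 0.891 ± 0.0688 at R1 and 0.741 ± 0.117 at R3, and in top leaves 0.814 ± 0.0418 and 0.6 ± 0.0382. Gene models of 4000 bases or more took 7.54% ± 0.633 of the counts in middle R1 and 6.43% ± 0.828 in middle R3 libraries. The mean length of gene models weighted by counts overlapped between stages at every position, and went from 2230 ± 36.5 to 2190 ± 58.4 bases in middle, 2300 ± 51.9 to 2290 ± 60.8 in bottom and 2180 ± 40.8 to 2100 ± 42.8 in top leaves. A measure of RNA integrity is not among the sources used here, and its part in the trend was not tested.

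When each library's trend over length was removed before the test, a choice made after the trend was seen, 146 genes differed (0.72%), 90 higher and 56 lower. Of the 216 genes that rose before, 75 were again called in the same direction, and of the 288 that fell, 56. The genes then called lower had a median of 2177 bases and those called higher 1980 bases. Removing the trend brings these lengths together by construction, so their closeness is no test. Vigun01g220300 (log2 fold change 3.77, edgeR adjusted p = 0.011), Vigun08g172300 (3.78, 0.046) and Vigun05g013700 (1.35, 0.037) kept their calls. The long genes Vigun05g295600 (-0.10, adjusted p = 0.49) and Vigun03g427000 (-0.21, 0.11) did not, nor did Vigun03g026300 (-2.04, 0.061), VigunL059915 (-2.08, 0.054) and Vigun11g148500 (0.64, 0.05, at the threshold and not past it).

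**Figure D3:**
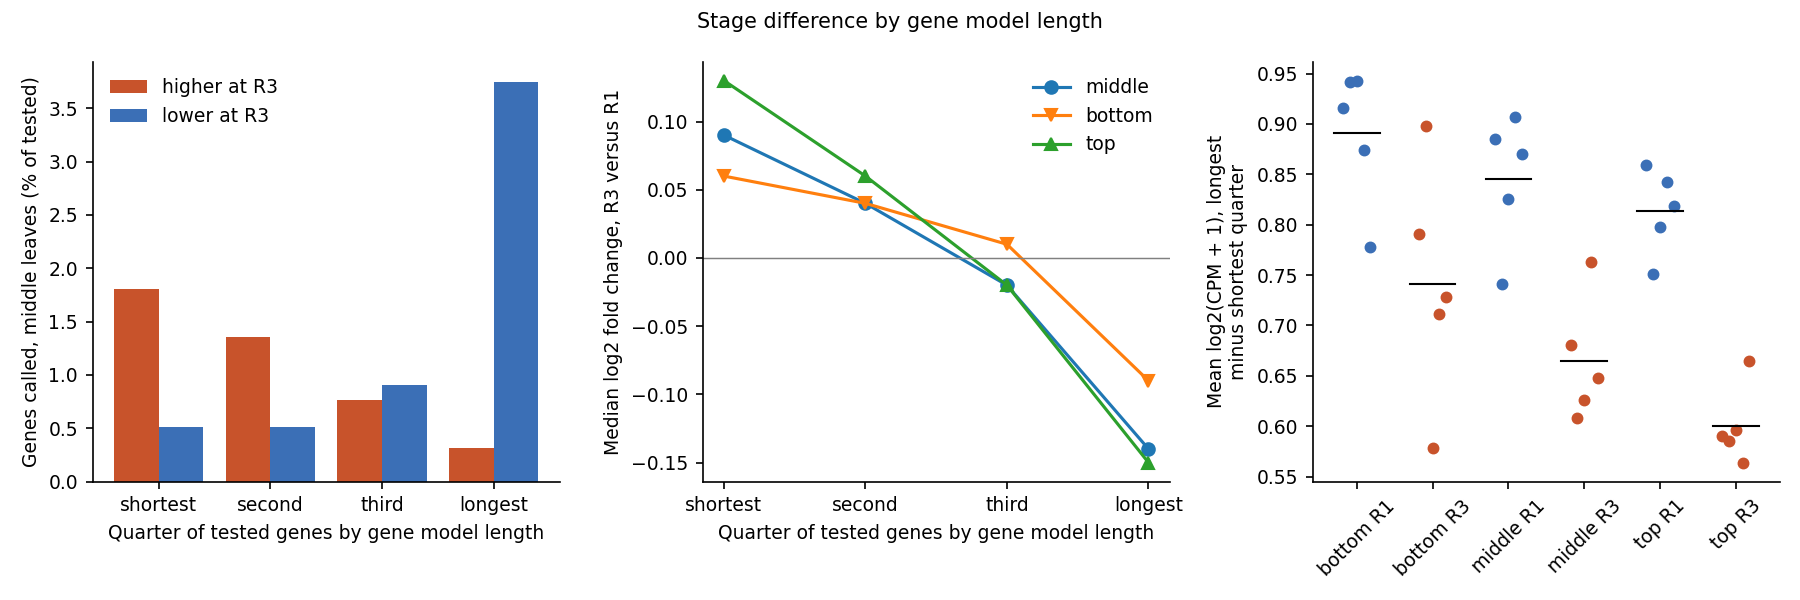
The left panel plots the percentage of tested genes called higher or lower at R3 in middle leaves for 4 classes of gene model length, the middle panel the median log2 fold change of each class at the 3 positions, and the right panel the mean log2(CPM + 1) of the longest minus the shortest class in every library, with a line at the mean of each group. Genes called lower reach 3.75% in the longest class, and the class medians in middle leaves go from 0.09 to -0.14.

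Of 221 tested genes on unplaced contigs, 14 fell and 1 rose (6.79%), whereas the percentage on the 11 chromosomes was between 2.15 and 2.92. Neighbouring genes seldom moved together: for 4 of 215 genes that rose and 3 of 287 that fell, the next tested gene on the same sequence was in the same list (1.86% and 1.05%, against 1.06% and 1.42% of all genes tested). Exons of another gene model overlap those of 12 higher and 13 lower genes (5.56% and 4.51%, against 3.93% of all genes tested). Their counts are uncertain, since how reads in such overlaps were assigned is unstated.

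Nearly all genes called in middle leaves had fold changes of the same sign at the other positions, whose libraries are not part of the middle contrast. Of the 216 genes that rose, all 216 had a positive fold change in bottom leaves and 208 in top leaves, where 49.7% and 49.9% of all genes tested did. Of the 288 that fell, 2 were positive in bottom and 4 in top leaves. Bottom leaves called 153 of the 216 higher (70.8%, background 7.71%) and 199 of the 288 lower (69.1%, background 8.53%), which is 9.78% and 11.5% of the genes that bottom leaves called in those directions. Top leaves called 46 of the 216 (21.3%, background 0.799%) and 68 of the 288 (23.6%, background 0.759%), or 28.4% and 44.2% of their own calls. No gene was called in opposite directions. There were 34 genes that rose and 57 that fell at all 3 positions, out of 48 and 77 genes of all tested that were called so in both bottom and top leaves. Neither bottom nor top leaves called 51 of the genes that rose (23.6%) and 78 of those that fell (27.1%), against 82.8% of all genes tested, which counts calls and tests no difference.

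These positions were fitted together, with a common filter, scaling and dispersion, so they were also fitted each on its own, a choice made after seeing the data. The background given here is the share of all genes tested in that fit that were called in the same direction. In those fits bottom leaves called 87 of the 214 higher genes that could be tested (background 2.81%) and 107 of 276 lower genes (background 3.64%). Top leaves called 13 of 210 higher genes (background 0.132%) and 5 of 278 lower genes (background 0.105%). Again 0 were called in the opposite direction. Replicates spread most in top R3 libraries, where the median gene had an SD of 0.371 in log2(CPM + 1), against 0.245 to 0.289 in the other groups. Its part in the low counts of top leaves was not tested. The shared direction held within each length class. Of the 92 higher genes of the shortest class, 92 were positive in bottom and 91 in top leaves. Of the 190 lower genes of the longest class, 189 were negative in bottom and in top leaves. Both go with the length trend seen at all positions. Against that trend, 16 of 16 higher genes of the longest class were positive in bottom and 14 in top leaves. In the shortest class 26 of 26 lower genes were negative in bottom and 25 in top leaves. Over all genes of the longest class the median log2 fold change was -0.09 in bottom and -0.15 in top leaves. In the shortest class it was 0.06 and 0.13. After the correction for length, 90 of the 90 higher genes were positive in bottom and 89 in top leaves, and 55 and 53 of the 56 lower genes were negative. The share of all genes with each sign at these positions was not computed by class or after the correction. The part of length in the shared direction was not tested.

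**Figure D4:**
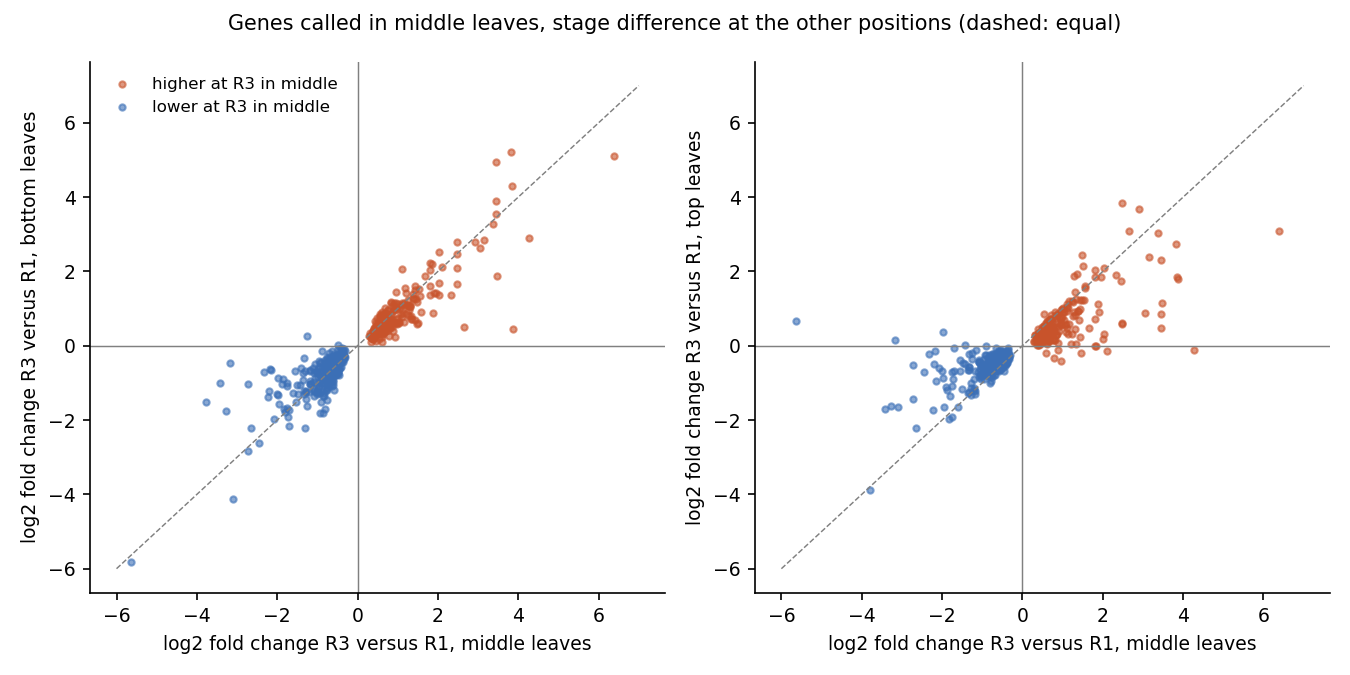
Each point is 1 of the 504 genes called in middle leaves, with its log2 fold change from R1 to R3 in middle leaves on the horizontal axis and in bottom leaves (left) or top leaves (right) on the vertical axis; the dashed line marks equal values. All 216 genes higher in middle leaves lie above 0 in bottom leaves, and 208 in top leaves.

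The reverse was tested with lists from contrasts of bottom or top libraries. The score of a list was the mean log2 CPM of its genes after centring each gene over the 30 libraries, and 6 lists were scored, chosen after earlier results were known. The 162 genes that rose in top leaves scored -0.361 ± 0.165 in middle R1 and 0.333 ± 0.225 in middle R3 libraries, and the 154 that fell in top leaves 0.302 ± 0.0342 and -0.285 ± 0.147. Neither pair of groups overlapped (exact permutation test, two-sided, p = 0.00794 each, adjusted over 6 lists 0.0238). The 1564 genes that rose in bottom leaves scored -0.428 ± 0.404 and 0.29 ± 0.345 (exact p = 0.0238, adjusted 0.0357), and the 1731 that fell there 0.38 ± 0.145 and -0.167 ± 0.293 (exact p = 0.0159, adjusted 0.0317), both with overlapping libraries. The call for the genes that rose in bottom leaves ended without R1 replicates 1, 3 and 4 (adjusted exact p = 0.0595 each) and without R3 replicates 2 to 5 (0.0714 to 0.0833). On values corrected for length, with lists from that fit, all 4 scores differed in the same directions (adjusted exact p = 0.0238 to 0.0357).

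The position of middle leaves on the axis from bottom to top was not shown to move with stage. The 3597 genes higher in top than bottom leaves at both stages scored 0.0772 ± 0.201 in middle R1 and -0.129 ± 0.332 in middle R3 libraries (difference -0.206, exact permutation p = 0.254, adjusted 0.305). The 3130 genes lower in top leaves scored -0.0504 ± 0.13 and 0.0275 ± 0.155 (difference 0.0779, exact p = 0.413, adjusted 0.413). Library ranges overlapped widely in both. Among the called genes, of the 216 that rose 44% were lower and 9.26% higher in top than bottom leaves at R3, against 25.8% and 26.1% of all genes tested, and of the 288 that fell 13.9% were lower and 33.7% higher. At R1 the same shares were 26.4% lower and 12.5% higher (background 20.8% and 22.2%) for genes that rose, and 12.2% and 19.4% for genes that fell.

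**Figure D5:**
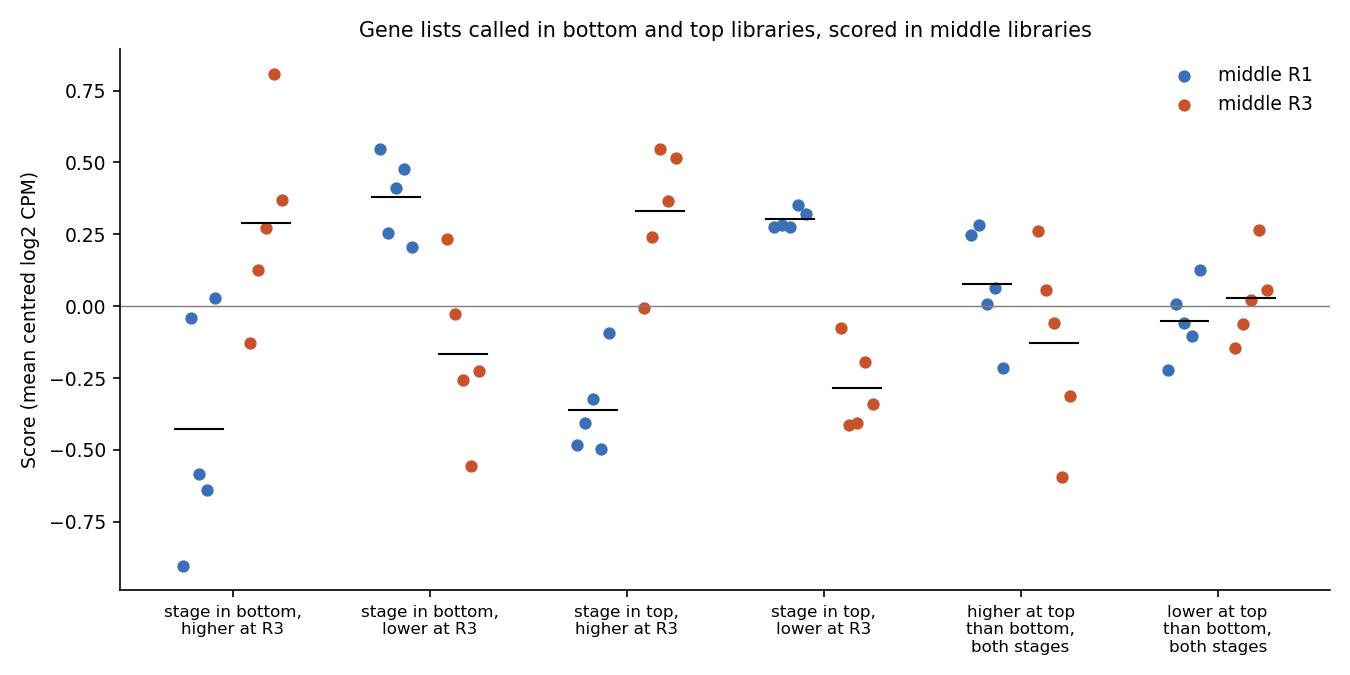
Points are the scores of the 5 middle R1 (blue) and 5 middle R3 (red) libraries, as mean centred log2 CPM, for 6 gene lists called in bottom and top libraries, with a line at the mean. R1 and R3 points separate fully for the genes that changed with stage in top leaves, at -0.361 and 0.333 on average for those higher, and overlap for the lists that separate top from bottom leaves.

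No gene's stage effect in middle leaves was shown to differ from that at another position. The edgeR test of the difference called 0 of 20284 genes against bottom leaves (0%), with 927 at an unadjusted p under 0.05 (4.57%), and 0 against top leaves, with 846 (4.17%). DESeq2 called 4 genes in each (0.0145%). The median SE of the log2 difference was 0.24 for the 216 genes that rose and 0.23 for the 288 that fell, in both comparisons. The 216 genes had a median log2 fold change of 0.72 in middle leaves, the contrast that chose them, 0.63 in bottom and 0.40 in top leaves. The 288 genes had medians of -0.70, -0.63 and -0.46. Against bottom leaves an unadjusted p under 0.05 was reached by 7 of the 216 (3.24%) and 23 of the 288 (7.99%), in 6 and 15 of which the middle change was the farther from 0. Against top leaves it was reached by 44 (20.4%) and 26 (9.03%), and the middle change was the farther from 0 in 43 and 26. Choosing genes by their middle values favours that direction.

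Where the 4 groups compared averaged 5 CPM or more, the gene with the smallest edgeR p in each direction was taken for each difference, and all 4 missed the threshold after adjustment. Vigun08g175700 (chromosome 8, 34601667 to 34604041, minus strand, 4 exons) stood at 17.8 to 26.3 CPM in middle R1 and 10.2 to 31.3 CPM in middle R3 libraries, which overlap. In bottom leaves it fell from 10.7 ± 3.36 to 3.51 ± 0.377 CPM (edgeR adjusted p = 0.00011), and in top leaves it was at 33.9 ± 1.58 and 32.8 ± 3.8 CPM. The difference between the middle and bottom effects was 1.55 (SE 0.30, edgeR unadjusted p = 1.7e-05, adjusted p = 0.34), and it passed with DESeq2 (adjusted p = 0.016), without TMM scaling (0.043) and without middle R3 replicate 4 (0.0082). Vigun07g213900 (chromosome 7, 33519511 to 33523207, minus strand, 3 exons) had 46.4, 54.8, 33.8, 45 and 67.5 CPM in middle R1 and 104, 146, 92.8, 132 and 206 CPM in middle R3 libraries. These did not overlap, but the stage test in middle leaves missed the threshold (log2 fold change 1.46, adjusted p = 0.064), while bottom leaves rose from 27.3 ± 17.3 to 514 ± 242 CPM (4.23, adjusted p = 6.7e-05). The difference was -2.77 (SE 0.62, edgeR adjusted p = 0.77) and passed with DESeq2 (-2.76, adjusted p = 0.047).

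Against top leaves, Vigun06g124600 (chromosome 6, 25177483 to 25181721, minus strand, 5 exons) had 2.53 to 5.04 CPM in middle R1 and 2.05 to 10.9 CPM in middle R3 libraries, while top leaves fell from 13.4 ± 3.39 to 3.97 ± 2.42 CPM (edgeR adjusted p = 0.02). The difference was 2.32 (SE 0.55, unadjusted p = 0.00024, adjusted p = 1), and the exons of this gene overlap another gene model, so its counts are uncertain. Vigun06g202500 (chromosome 6, 31717284 to 31720412, minus strand, 14 exons) varied at R1, with 105, 3.34, 18, 80.2 and 17.3 CPM in middle libraries, and had 3.63, 13.9, 11.8, 11.3 and 15.3 CPM at R3. The groups overlapped in middle leaves, and top leaves were at 1.36 ± 1.25 and 10.4 ± 8.63 CPM. The difference was -4.93 (SE 1.27, edgeR unadjusted p = 0.00062, adjusted p = 1).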

How the data were processed

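The authors deposited raw counts per gene model for 30 leaf libraries, and all tests used these counts. HISAT2, featureCounts and DESeq2 are named per the submitters' processing notes, without versions or roles; their settings, the build and strand handling included, are unstated in the sources used. A deposited table of normalized counts was not used. Columns were matched to samples by their descriptions, with 0 left over. Counts were filtered by filterByExpr, which left 20284 of 31948 gene models, scaled by TMM and fitted with edgeR 4.0.16 (quasi-likelihood, all 6 groups, 24 residual degrees of freedom) in R 4.3.3. A standard error is the size of a log2 fold change over the square root of its F. Adjusted p-values are Benjamini-Hochberg, called under 0.05. Scores used log2 CPM with a prior count of 2. Exact permutation tests ran over all 252 assignments of 10 libraries. The fit was run on simulated independent counts without a length trend or shifts of whole libraries, so that run says nothing on how such features affect the calls.

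The length correction entered a lowess trend of each library's log2 deviation over log2 length as an offset. Other alternatives were size factors of DESeq2, no scaling, no filter, DESeq2 1.42.0, replicate blocks, fits of the groups compared, thinning and leaving out libraries. Within the middle groups, libraries differed by 16.6 to 189 times the spread that counting alone gives, by chi-square, so none was taken as a copy. Named genes were, among called genes of at least 5 CPM in the higher group with ranges that did not overlap, the 2 higher and 2 lower with the largest fold and the 2 and 2 with the highest level, and, since no difference between positions was called, the gene of smallest edgeR p in each direction among those with a mean of at least 5 CPM over the 4 groups. Gene lists and cell type markers rest on product names and were not analysed here. The members and lists were chosen with earlier results of these data known.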

Additional observations from a re-analysis of the deposited data

Results flagged for a closer look

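In 3 of 70 groups of 5 libraries tested, 1 library stood apart by Dixon's criterion (gap over range above 0.71), where chance gives about 1 in 20 groups. Vigun08g172300 was at 19.3 CPM in middle R3 replicate 4, with the next library at 5.64 CPM. The share of counts on chromosome 4 was 6.59% in the highest middle R1 library and 5.83% in the next. The share on chromosome 8 was 8.92% in the highest middle R3 library and 8.14% in the next.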

How the results depend on the processing

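Against 504 genes called for R3 versus R1 in middle leaves (2.48% of genes tested), the count was 526 with size factors of DESeq2 (2.59%). It was 738 with a replicate block (3.64%) and 474 after thinning (2.37%). It was 290 with library size alone (1.43%), 259 with no filter (0.938% of 27613) and 234 with only the groups compared (1.27% of 18408). It was 143 at 2-fold or more (0.705%) and 146 with the length correction (0.72%, 90 higher and 56 lower). With DESeq2 it was 1435 (5.2% of 27613), with 502 of the 504 in the same direction. Without 1 library it was 67 to 1402 (0.326% to 6.81%). With a replicate block and only the 2 middle groups it was 0 (edgeR; 4222 at an unadjusted p under 0.05). The cause was not tested. Same-numbered middle libraries had correlations of 0.16, 0.09, -0.15, 0.02 and 0.32 of their deviations, and in 1 of 5 cases a library correlated best with its own number, so the numbers were not taken to pair samples.

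For the difference between middle and bottom effects, 0 calls became 1 without scaling (0.00493%) and 4 with DESeq2 (0.0145%). Without 1 library there were 0 to 1 (up to 0.00487%). For the difference between middle and top effects there were 4 with DESeq2 (0.0145%) and 0 in the other fits, the replicate block within stage included. The DESeq2 calls against bottom leaves, with log2 differences, were Vigun07g088000 (0.98), Vigun07g213900 (-2.76), Vigun07g227200 (-0.65) and Vigun08g175700 (1.57). Those against top leaves were Vigun03g186700 (-8.26), Vigun03g314100 (-7.48), Vigun04g017400 (-17.75) and Vigun11g129000 (-24.4). Some were named after their values were seen. The last pair had edgeR unadjusted p-values of 0.56 and 0.0083, and differences of such size are not taken here as measured effects.

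With labels exchanged within same-numbered pairs (replicate block), the score differences of 0.718, -0.546, 0.694 and -0.588 had an adjusted exact p of 0.0938; 5 pairs cannot go under an exact p of 0.0625. Without 1 library the first ran from 0.589 to 0.832. The 17 library measures stayed short of the threshold in all alternatives, but these tests had little room to pass. Before adjustment over 17, the smallest exact p is 0.00794 for 5 against 5 and 0.0159 for 5 against 4. Exchange within pairs cannot go under 0.0625, so it could not pass. The shares of counts on chromosome 3 and on contigs did not overlap between the stages with all 10 libraries. No named gene changed sign.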
